A study of Ananas comosus with 9 samples.

Results

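Transcripts of 10 circadian clock genes were followed in the peel of pineapple (Ananas comosus), the outer tissue of the fruit, at 60, 90 and 120 DAF (days after flowering). The set consists of GIGANTEA (Aco014347) and 9 gene models that carry the KEGG ortholog code of LHY (K12133), and it was taken by gene identifier from the 26730 gene models of the deposited table. The series was designed around anthocyanins and how pineapple peel loses colour during maturation. Each age had 3 libraries, whose only labelled difference is the fruit age. The labels name no cultivar, plant, fruit or hour of harvest, and do not say whether replicates are separate fruits, so the p-values below describe the spread between these libraries, which may be technical.

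The plant circadian clock is a loop of transcription factors that repress one another at different times of day. In Arabidopsis, LHY is a MYB-type DNA-binding protein whose transcript peaks around dawn and which represses genes expressed in the evening, GIGANTEA among them. GIGANTEA encodes a large nuclear and cytosolic protein whose transcript peaks late in the day. It stabilises the F-box photoreceptors ZTL and FKF1 and links the clock to flowering. In Arabidopsis the LHY type of MYB gene belongs to a family that also includes the REVEILLE genes. None of the 9 pineapple models has a product name in the table, so LHY in the strict sense and its relatives are not separated here. Because these transcripts follow a daily rhythm and the labels give no hour of harvest, fruit age and hour of harvest cannot be told apart in any result below.

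The libraries held 35038248 to 52937826 counts. Levels are given as the authors' FPKM (fragments per kilobase of transcript, scaled to library size, so that levels of different genes can be compared). Fold changes come from edgeR's quasi-likelihood test on the counts of all 9 libraries, with TMM scaling, which corrects for differences in library composition. P-values were adjusted over the 16791 genes that reached 1 FPKM in 3 or more libraries, with a threshold of 0.05. All 10 genes passed that filter. In all, 12 gene models carried the LHY code. The 3 outside the set (Aco028506, Aco028655 and Aco029094) did not pass the filter, and each of them overlaps a member.

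The table's identifiers carry a suffix that is left off here (Aco014347.1.path1, Aco011903.1.path1, Aco009204.1.path1 and so on). The 12 models with the LHY code lie at 8 loci of the deposited table, whose genome build is not given in the sources used here. Aco011903 lies on the minus strand of contig 4 (13424372 to 13426603) and Aco016649 on the plus strand of contig 9 (10705529 to 10714126). Contig 23 holds Aco009204 (8428587 to 8431919, minus) and Aco017509 (1449711 to 1456957, plus). Contig 25 holds Aco013228 (695327 to 706370, minus) and Aco013238 (854316 to 859468, plus). The models Aco001524 (9918343 to 9922096) and Aco028654 (9919126 to 9924513) overlap by 2971 bases on the plus strand of contig 19 and are therefore not independent genes. Aco023196 lies on the plus strand of contig 11 (5206593 to 5213258). GIGANTEA is a single model on the minus strand of contig 6 (645368 to 655165) and was the only model with its ortholog code.

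GIGANTEA was low in the youngest peel and high at both later ages. It stood at 88.9, 22.0 and 39.9 FPKM in replicates 1, 2 and 3 of 60 DAF. At 90 DAF it stood at 280.8, 274.6 and 209.3 FPKM, and at 120 DAF at 303.8, 248.7 and 312.6 FPKM. The 3 libraries of 60 DAF lay below all 6 later libraries, while the libraries of 90 and 120 DAF overlapped. Means were 50.3 ± 34.6, 254.9 ± 39.6 and 288.4 ± 34.6 FPKM (SD, n = 3). Between 60 and 120 DAF the gene rose 6.90-fold (log2 fold change 2.79 ± 0.48, SE, edgeR adjusted p = 0.0146). Without 60 DAF replicate 3 that adjusted p was 0.0635 (2.28e-07 to 0.0635 over all alternatives), and without 60 DAF replicate 1, the library with the most GIGANTEA at that age, the log2 fold change was 3.53. The difference between 60 and 90 DAF, 2.30 ± 0.47 on the log2 scale, missed the threshold (edgeR adjusted p = 0.0717). DESeq2 gave it an adjusted p of 7.71e-05 and limma on log2(FPKM + 1) one of 0.0242, and the range over all alternatives was 7.71e-05 to 0.242. The later step, to 120 DAF, had a log2 fold change of 0.48 ± 0.45 (edgeR adjusted p = 0.501).

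**Figure D1:**
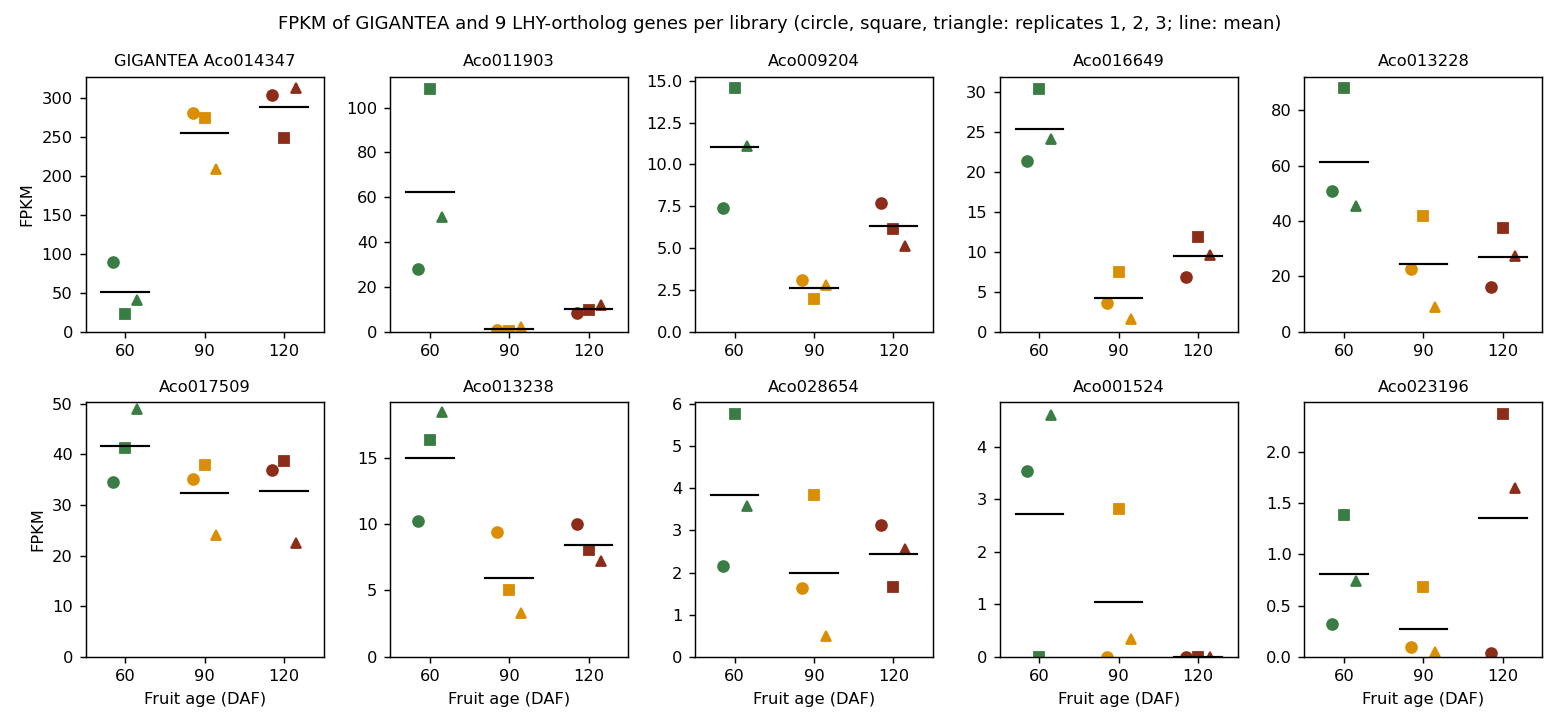
FPKM (vertical axes, linear, each panel with its own scale) of GIGANTEA and the 9 LHY-ortholog models in the 9 libraries, by fruit age in DAF (horizontal axes). Each symbol is a library and each line the mean of 3 libraries: GIGANTEA runs from 22.0 to 88.9 FPKM at 60 DAF and from 209.3 to 312.6 FPKM later, while Aco011903 runs from 27.8 to 108 FPKM at 60 DAF and from 0.170 to 11.8 FPKM later.

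Among the LHY-ortholog genes Aco011903 had the widest range of levels. It stood at 27.8, 108 and 51.3 FPKM at 60 DAF, at 0.779, 0.170 and 2.05 FPKM at 90 DAF, and at 8.41, 9.46 and 11.8 FPKM at 120 DAF. No library of one age overlapped a library of another. The gene fell 59.7-fold from 60 to 90 DAF (log2 fold change -5.90 ± 0.95, SE, edgeR adjusted p = 0.0423). It then rose 11.6-fold from 90 to 120 DAF (3.54 ± 0.86, edgeR adjusted p = 0.0271). At 120 DAF it remained below 60 DAF in every library, at -2.36 ± 0.80, without passing the test (edgeR adjusted p = 0.103).

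Aco009204 had the same order of ages at a lower level. It stood at 7.39, 14.6 and 11.1 FPKM at 60 DAF, at 3.10, 1.95 and 2.79 FPKM at 90 DAF, and at 7.69, 6.16 and 5.14 FPKM at 120 DAF. The 90 DAF libraries were below all others, while those of 60 and 120 DAF overlapped. The gene fell 4.20-fold from 60 to 90 DAF (-2.07 ± 0.32, edgeR adjusted p = 0.0384) and rose 2.95-fold from 90 to 120 DAF (1.56 ± 0.31, edgeR adjusted p = 0.0149).

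The calls between 60 and 90 DAF depended on single libraries for both genes. By edgeR they ended without any one library of 60 DAF and without 90 DAF replicate 1 or 3. Both also ended without 120 DAF replicate 1 or 3 and when 120 DAF was dropped from the fit. With the replicate number as a block they ended as well (edgeR adjusted p = 0.109 for Aco009204 and 0.108 for Aco011903). For Aco011903 the call also ended without 120 DAF replicate 2. Calls over all genes dropped too, from 132 in the main fit to 3, 0 and 0 without 60 DAF replicate 1, 2 or 3. They dropped to 5 and 27 without 90 DAF replicate 1 or 3, and to 10 with the block. Without 120 DAF replicate 2 they numbered 179. The adjusted p of Aco009204 ran from 1.80e-07 to 0.125 and that of Aco011903 from 3.14e-11 to 0.133 over all alternatives. The log2 fold change of Aco011903 was -5.25 when 60 DAF replicate 2 was left out and -7.07 when 90 DAF replicate 3 was. Among the alternatives for the rise to 120 DAF, the call for Aco009204 ended only without 120 DAF replicate 1 (edgeR adjusted p = 0.0543, and 6.51e-05 to 0.0543 over all alternatives). That for Aco011903 ended without 90 DAF replicate 1, without 120 DAF replicate 1 or 3, and when 60 DAF was dropped from the fit, with adjusted p-values of 8.51e-05 to 0.0782 across alternatives. Its log2 fold change was 4.70 without 90 DAF replicate 3.

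Aco016649 had the same order of ages but missed the threshold. It stood at 21.4, 30.5 and 24.2 FPKM at 60 DAF, at 3.55, 7.45 and 1.58 FPKM at 90 DAF, and at 6.85, 11.9 and 9.62 FPKM at 120 DAF. All 3 libraries of 60 DAF lay above the other 6, and those of 90 and 120 DAF overlapped. The log2 fold change was -2.63 ± 0.48 from 60 to 90 DAF (edgeR adjusted p = 0.0582, and 4.88e-06 to 0.177 over all alternatives). For the step to 120 DAF it was 1.49 ± 0.47 (edgeR adjusted p = 0.0609, and 0.0109 to 0.147 over all alternatives). Without 90 DAF replicate 2, in which this gene was highest at that age, the adjusted p-values by edgeR were 0.0285 and 0.0143.

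Aco013228 and Aco017509 were the most highly expressed of the 9 over all libraries, with means of 37.6 and 35.6 FPKM. Aco013228 stood at 50.8, 88.1 and 45.3 FPKM at 60 DAF, at 22.8, 41.8 and 9.03 FPKM at 90 DAF, and at 16.0, 37.3 and 27.3 FPKM at 120 DAF. The libraries of 60 DAF lay above all later ones, and no comparison passed the test (-1.36 ± 0.52 from 60 to 90 DAF, edgeR adjusted p = 0.240). Aco017509 moved least. It stood at 34.6, 41.2 and 48.9 FPKM at 60 DAF, at 35.2, 38.0 and 24.1 FPKM at 90 DAF, and at 36.9, 38.6 and 22.5 FPKM at 120 DAF, with overlap between all ages. Its log2 fold changes were -0.38 ± 0.23, 0.31 ± 0.23 and -0.07 ± 0.23 for 90 against 60, 120 against 90 and 120 against 60 DAF (edgeR adjusted p = 0.446, 0.383 and 0.880).

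The order of levels among the 9 changed with age. At 60 DAF Aco011903 (mean 62.4 FPKM), Aco013228 (61.4 FPKM) and Aco017509 (41.6 FPKM) led, and each overlapped the next in its libraries. At 90 DAF Aco017509 (32.4 FPKM) and Aco013228 (24.5 FPKM) led with overlap, all other members had means of 5.91 FPKM or less, and Aco011903 was at 0.9999 FPKM. At 120 DAF Aco017509 (32.7 FPKM) and Aco013228 (26.9 FPKM) again overlapped. They were followed by Aco011903 (9.88 FPKM), Aco016649 (9.45 FPKM), Aco013238 (8.42 FPKM) and Aco009204 (6.33 FPKM), of which each overlapped its neighbour. The lowest 3 at 60 and 120 DAF were Aco028654, Aco001524 and Aco023196, with means of 3.83 FPKM or less. Of the summed FPKM of the 9 models Aco011903 made up 17.6 to 35.4% at 60 DAF. Its share was between 0.167 and 4.69% at 90 DAF and between 8.19 and 13.4% at 120 DAF.

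The locus of Aco013238 has 3 overlapping models with the LHY code on the same strand. The split of reads among them differed between libraries, and the cause of this was not tested. Aco013238 stood at 10.2, 16.4 and 18.4 FPKM at 60 DAF, at 9.37, 5.05 and 3.33 FPKM at 90 DAF, and at 9.99, 8.07 and 7.18 FPKM at 120 DAF. The values of 60 DAF lay above all others. In 90 DAF replicate 2, however, the overlapping model Aco029094 (854316 to 859602) held 636 counts and Aco013238 only 261, and in replicate 3 they held 133 and 138. In the other 7 libraries Aco029094 held between 10 and 32 counts. Summed over the 3 models, an alternative added after the data were seen, the locus had 12.3, 20.2 and 22.8 CPM (counts scaled to library size) at 60 DAF. It had 11.3, 21.8 and 8.45 CPM at 90 DAF and 12.3, 9.80 and 9.69 CPM at 120 DAF, so the ages overlapped. The log2 fold change from 60 to 90 DAF was -1.38 ± 0.36 for Aco013238 alone (edgeR adjusted p = 0.122) and -0.43 ± 0.35 for the locus (edgeR adjusted p = 0.591). For the step to 120 DAF it was 0.83 ± 0.35 for the model and -0.07 ± 0.35 for the locus. DESeq2 called the fall of Aco013238 alone (adjusted p = 0.00939, and 0.00939 to 0.591 over all alternatives).

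**Figure D2:**
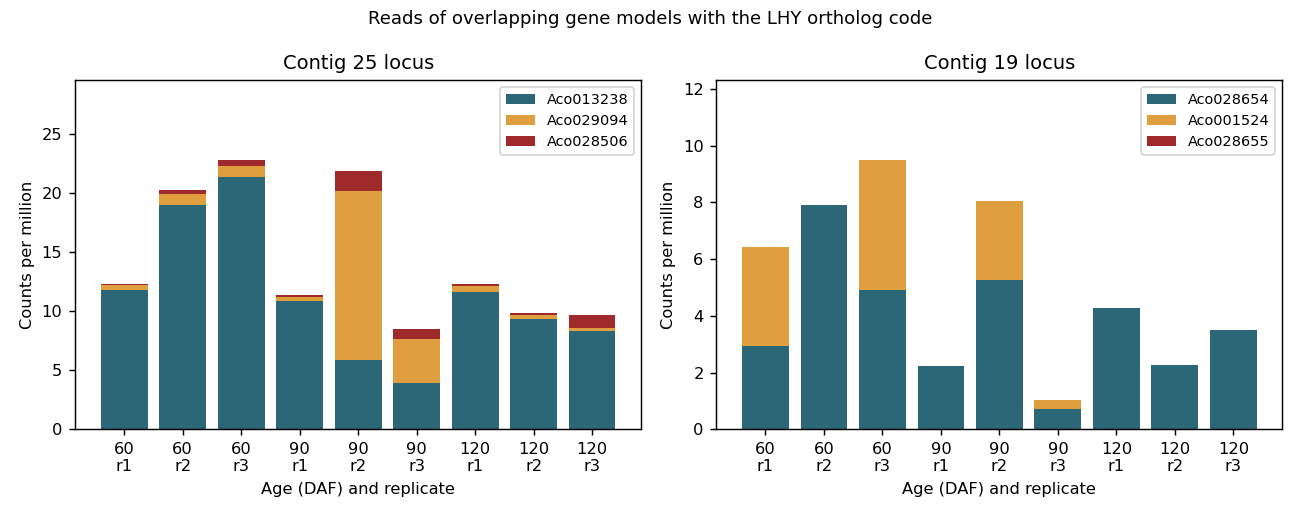
CPM, counts scaled to library size (vertical axes), in each of the 9 libraries, stacked by overlapping gene model, for the contig 25 locus of Aco013238 and the contig 19 locus of Aco001524 and Aco028654. In 90 DAF replicate 2 Aco029094 holds 636 of the 971 counts at the contig 25 locus, and at the contig 19 locus Aco001524 is at 0 in 5 libraries in which Aco028654 is not.

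At the contig 19 locus the model Aco001524 had 136, 0 and 160 counts in the libraries of 60 DAF, then 0, 124 and 12 counts at 90 DAF, and 0 in all 3 libraries of 120 DAF. Taken alone it was at least 116-fold lower at 120 than at 60 DAF and at least 43.9-fold lower than at 90 DAF, against a floor of 3 counts over the age. The edgeR test called neither (adjusted p = 0.142 and 0.164). The overlapping model Aco028654 had counts in every library, at 2.14, 5.77 and 3.58 FPKM at 60 DAF, 1.64, 3.83 and 0.497 FPKM at 90 DAF, and 3.12, 1.66 and 2.56 FPKM at 120 DAF. Summed over the locus the log2 fold change from 60 to 120 DAF was -0.94 ± 0.64 (edgeR adjusted p = 0.390), and the locus still had 4.29, 2.27 and 3.52 CPM at 120 DAF. From 90 to 120 DAF that of the locus was 0.17 ± 0.64 (edgeR adjusted p = 0.886). The fall of Aco001524 alone in that step was thus not seen for the locus as a whole.

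Of the 10 genes Aco023196 had the lowest mean over the 9 libraries, with values between 0.0417 and 2.37 FPKM, although Aco001524 was lower at 120 DAF. No comparison was called for it. Its 5 counts in 120 DAF replicate 1 stood against 260 and 183 in replicates 2 and 3. The model overlaps Aco031823 on the opposite strand by 1614 bases. That model held 5958 counts over the 9 libraries, and the strand setting of the counting is not given in the sources used here, so reads of these models cannot be told apart with certainty.

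By edgeR 2 of the 9 LHY-ortholog genes fell from 60 to 90 DAF and 0 rose, where 0.465% of all genes tested were called lower and 0.322% higher. All 9 had a negative log2 fold change, as did 47.1% of all genes tested. The median was -1.40 for the 9 and 0.03 for all genes. The -1.40 is the value of Aco001524 (± 1.96, SE), which had 0 counts in 60 DAF replicate 2 and 90 DAF replicate 1. At an unadjusted p under 0.05, 5 were lower and 0 higher, against 8.26% and 8.68% of all genes. DESeq2 called 4 lower and limma on log2(FPKM + 1) called 3 lower, against 4.39% and 0.893% of all genes. GIGANTEA was called higher by both, where 4.25% and 0.852% of all genes were. The FPKM groups did not overlap for 5 of the 9, all lower at 90 DAF, against 10.2% of all genes lower and 10.4% higher. The fifth of these is Aco013238, whose locus as a whole did overlap.

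In the step from 90 to 120 DAF 2 of the 9 rose and 0 fell by edgeR, where 8.19% of all genes were called higher and 9.17% lower. Unadjusted p-values under 0.05 were found for 4 higher and 0 lower, against 15.6% and 17.7% of all genes. DESeq2 called 3 higher and 1 lower (Aco001524), against 12.8% and 15.2% of all genes. By edgeR the locus of Aco001524 as a whole stood at 0.17 in this step. Under limma on log2(FPKM + 1) 2 were higher and 0 lower, against 4.25% and 14.7% of all genes. The FPKM groups did not overlap for 2 of the 9, both higher at 120 DAF, against 8.73% of all genes higher and 27.3% lower. The median log2 fold change was 0.83 for the 9 and -0.03 for all genes. Aco001524 lies below that median with or without its bound, so the bound could not change it. The 0.83 is the value of Aco013238, whose locus as a whole stood at -0.07. This comparison shares the 90 DAF libraries with the one before.

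Between 60 and 120 DAF edgeR called 0 of the 9, where 4.25% of all genes were called higher and 5.22% lower. Unadjusted p-values under 0.05 were found for 3 lower and 0 higher, against 13.7% and 13.2% of all genes. DESeq2 called 2 lower (Aco001524 and Aco011903) and GIGANTEA higher, against 10.9% and 9.44% of all genes. With limma on log2(FPKM + 1) Aco011903 was lower and GIGANTEA higher, against 9.54% and 2.77% of all genes. The FPKM groups did not overlap for 4 of the 9, all lower at 120 DAF, where 33.7% of all genes were lower and 9.71% higher, a share that is not far from the background. Here 8 of the 9 log2 fold changes were negative, with a median of -0.54 against -0.01 for all genes. The -0.54 is the value of Aco013238, whose locus as a whole stood at -0.51.

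**Figure D3:**
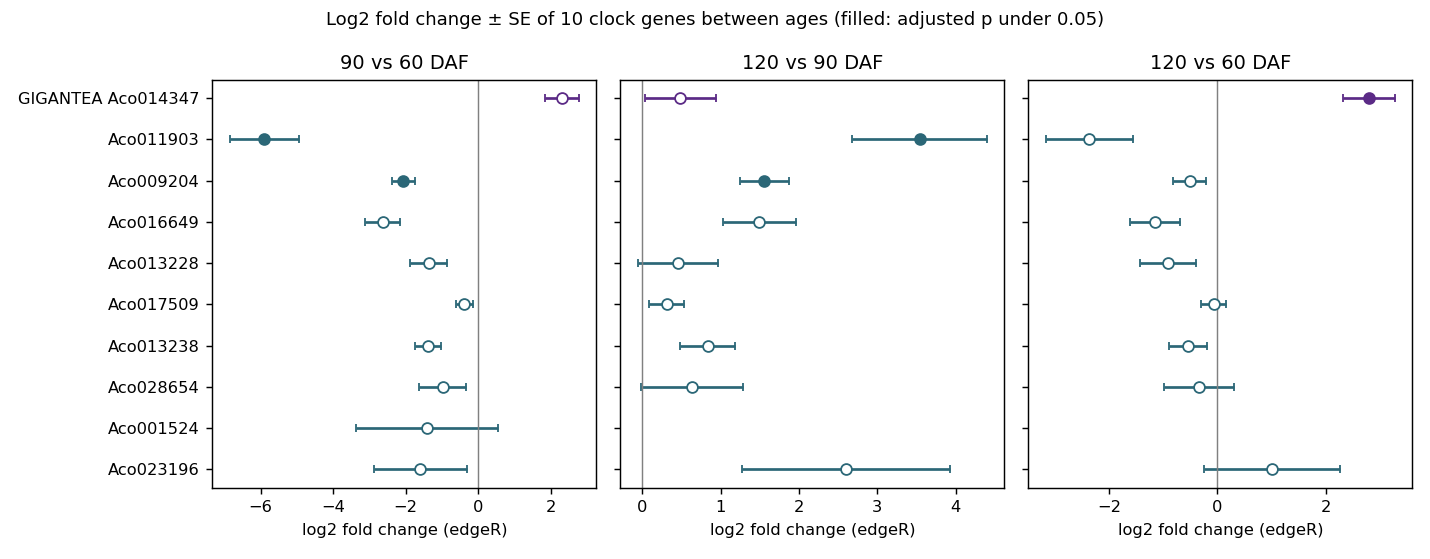
Log2 fold change (horizontal axes, edgeR) with its SE for GIGANTEA and the 9 LHY-ortholog models in the 3 comparisons of ages, filled where the adjusted p is under 0.05. From 60 to 90 DAF GIGANTEA (2.30) lies to the right of 0 and all 9 models to the left, and from 90 to 120 DAF GIGANTEA (0.48) lies on the same side as the 8 models shown. Aco001524 is not drawn in the comparisons with 120 DAF, where it had 0 counts.

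All 9 LHY-ortholog models, which lie at 8 loci, thus had a log2 fold change opposite in sign to that of GIGANTEA from 60 to 90 DAF. Between 60 and 120 DAF 8 of the 9 did. In that comparison Aco017509 and Aco028654 turned positive in some fits without single libraries (up to 0.12 and 0.06). In the step from 90 to 120 DAF 8 of the 9 had the same sign as GIGANTEA, although that of Aco017509 turned negative by limma and that of Aco013238 did when its overlapping models were summed. The model with the other sign, Aco001524, lies at a locus that as a whole stood at 0.17. With all 9 libraries in the fit, edgeR called GIGANTEA and an LHY-ortholog gene in opposite directions in no comparison. The pair came closest from 60 to 90 DAF, where Aco009204 and Aco011903 passed and GIGANTEA missed the threshold. In the comparison of 120 with 60 DAF, GIGANTEA passed and none of the 9 did by that fit. Here 3 other edgeR fits did call GIGANTEA higher and LHY-ortholog genes lower. Aco011903 and Aco016649 were called lower when 90 DAF was dropped (edgeR adjusted p = 0.0298 and 0.0264) and without 90 DAF replicate 2 (0.0374 and 0.0431), and Aco011903 alone without 90 DAF replicate 3 (0.0455). Over all alternatives the adjusted p of Aco011903 ran from 0.0159 to 0.302 and that of Aco016649 from 0.0264 to 0.353. With DESeq2, as with limma on log2(FPKM + 1), GIGANTEA and at least 1 of the 9 were called in opposite directions in both of these comparisons.

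Within single libraries the ratio of GIGANTEA to Aco011903 by FPKM separated the ages without overlap. Aco011903 alone did so too, while GIGANTEA overlapped between 90 and 120 DAF. It was 3.20, 0.203 and 0.777 in the libraries of 60 DAF. Those of 90 DAF gave 360.2, 1619.6 and 102, and those of 120 DAF gave 36.1, 26.3 and 26.5. The ratio of GIGANTEA to the sum of the 9 models was 0.562, 0.0718 and 0.192 in the libraries of 60 DAF. In those of 90 DAF it was 3.67, 2.70 and 4.79, and in those of 120 DAF 3.41, 2.15 and 3.56. For the sum, the libraries of 60 DAF lay below all others, and those of 90 and 120 DAF overlapped. These ratios describe the members chosen and carry no test.

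**Figure D4:**
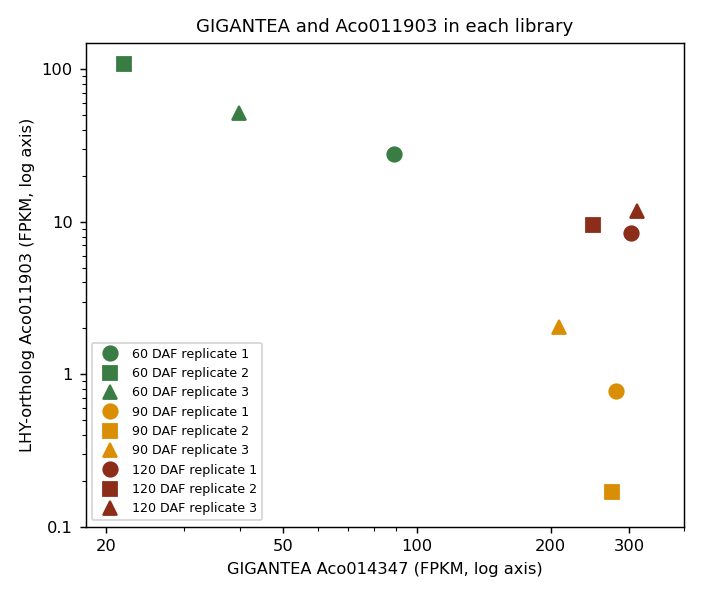
FPKM of GIGANTEA (horizontal, log axis) against FPKM of the LHY-ortholog gene Aco011903 (vertical, log axis) in each of the 9 libraries, coloured by age with a symbol per replicate. The 60 DAF libraries lie at the upper left, at up to 88.9 FPKM of GIGANTEA and at least 27.8 FPKM of Aco011903, and the 90 and 120 DAF libraries share the range of GIGANTEA but differ in Aco011903 (at most 2.05 and at least 8.41 FPKM).

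Replicates of 1 age also differed among themselves. Within 60 DAF, replicate 2 had the least GIGANTEA (22.0 FPKM) and the highest level of 6 of the 9 LHY-ortholog genes, and replicate 1 had the most GIGANTEA (88.9 FPKM) and the lowest level of 7 of the 9. Within 90 DAF the order was not opposite, since replicate 3 had the least GIGANTEA (209.3 FPKM) and also the lowest level of 6 of the 9, while replicate 2 had the highest level of 6. Within 120 DAF replicate 2 had the least GIGANTEA (248.7 FPKM) and the highest level of 4 of the 8 LHY-ortholog genes with counts there. Replicate 3 had the most GIGANTEA (312.6 FPKM) and the lowest level of 3, while replicate 1 had the lowest level of 4 and the highest of 3. The share of all genes with such orders was not computed. The summed light-harvesting genes, given below, were also lowest in replicate 1 (124 FPKM) and highest in replicate 2 (252 FPKM) of 60 DAF.

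Light-harvesting chlorophyll protein genes, markers of green tissue, were measured in the same libraries. Their 24 models summed to 124, 252 and 175 FPKM in the libraries of 60 DAF. The sums were 590, 2769 and 349 FPKM for 90 DAF and 38.2, 36.8 and 56.1 FPKM for 120 DAF, with 2 to 9 of the 24 at 0 in a library. The sum was thus highest at 90 DAF and lowest at 120 DAF, ages at which GIGANTEA overlapped. Its highest value, in 90 DAF replicate 2, stood beside the lowest Aco011903 and the highest Aco016649 and Aco013228 of that age. The part of green tissue in the LHY-ortholog values was not tested. In bulk peel a smaller share of cells that express a gene and less RNA per cell cannot be told apart.

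Other genes of the clock and its light input were read from the same fit by KEGG code. There were 83 such models, of which 65 were tested. From 60 to 90 DAF edgeR called 3 of the 65 lower (4.62%, against 0.465% of all genes) and 0 higher. DESeq2 called 7 lower and 3 higher, where 4.39% and 4.25% of all genes were. With an unadjusted p under 0.05, 11 were lower (16.9%, against 8.26% of all genes) and 6 higher (9.23%, against 8.68%), so the share higher was near the background. The median log2 fold change was -0.06. All 3 carry the code of CDF1 (K16222), a DOF-type repressor of flowering genes that in Arabidopsis is degraded through GIGANTEA and FKF1. Aco001684 stood at 14.96, 21.9 and 16.1 FPKM at 60 DAF, at 2.10, 1.17 and 1.88 FPKM at 90 DAF, and at 2.39, 3.59 and 2.28 FPKM at 120 DAF. The 60 DAF libraries lay far above the other 6. It fell by 3.36 ± 0.32 on the log2 scale to 90 DAF (edgeR adjusted p = 0.0230) and was lower by the same test at 120 than at 60 DAF (-2.40 ± 0.30, edgeR adjusted p = 0.00620).

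The table holds 5 models with the CDF1 code, of which 4 were tested, and all 4 had their highest mean at 60 DAF and their lowest at 90 DAF. Aco009612 went from 32.2 ± 11.01 to 4.83 ± 1.84 FPKM (SD, n = 3) from 60 to 90 DAF (-2.76 ± 0.40, edgeR adjusted p = 0.0367) and Aco018657 from 15.3 ± 4.81 to 3.26 ± 1.16 FPKM (-2.25 ± 0.36, edgeR adjusted p = 0.0398). Both were also called lower at 120 than at 60 DAF (-1.71 ± 0.38 and -1.44 ± 0.35, edgeR adjusted p = 0.0325 and 0.0404). The tested gene Aco014686 was not called (-2.96 from 60 to 90 DAF, edgeR adjusted p = 0.164). The untested model Aco018092 had the opposite order at a low level, with means of 0.116, 0.399 and 0.978 FPKM at 60, 90 and 120 DAF. Calls of the first 3 genes from 60 to 90 DAF held in 13, 10 and 8 of 19 alternatives. All of them ended without any one library of 60 DAF, without 90 DAF replicate 1 and without 120 DAF replicate 3. In those fits 0 to 5 of all genes were called, against 132 in the main fit. The 3 calls also ended with the replicate number as a block, where 10 of all genes were called. Those of Aco009612 and Aco018657 also ended without 90 DAF replicate 3 or 120 DAF replicate 1 and when 120 DAF was dropped from the fit, and that of Aco018657 under total count scaling (0.0522) and without the filter on low values (0.0502). The adjusted p ran from 4.68e-22 to 0.0965 for Aco001684, from 3.22e-09 to 0.124 for Aco009612 and from 3.11e-07 to 0.137 for Aco018657. Between 60 and 120 DAF the call of Aco001684 was kept in all 19 alternatives. That of Aco009612 ended without 60 DAF replicate 2 or 3 or 120 DAF replicate 1 or 3. That of Aco018657 ended without any one library of 60 or 120 DAF, without 90 DAF replicate 1 and without the filter on low values. The calls of Aco009612 and Aco018657 also ended with the replicate number as a block.

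**Figure D5:**
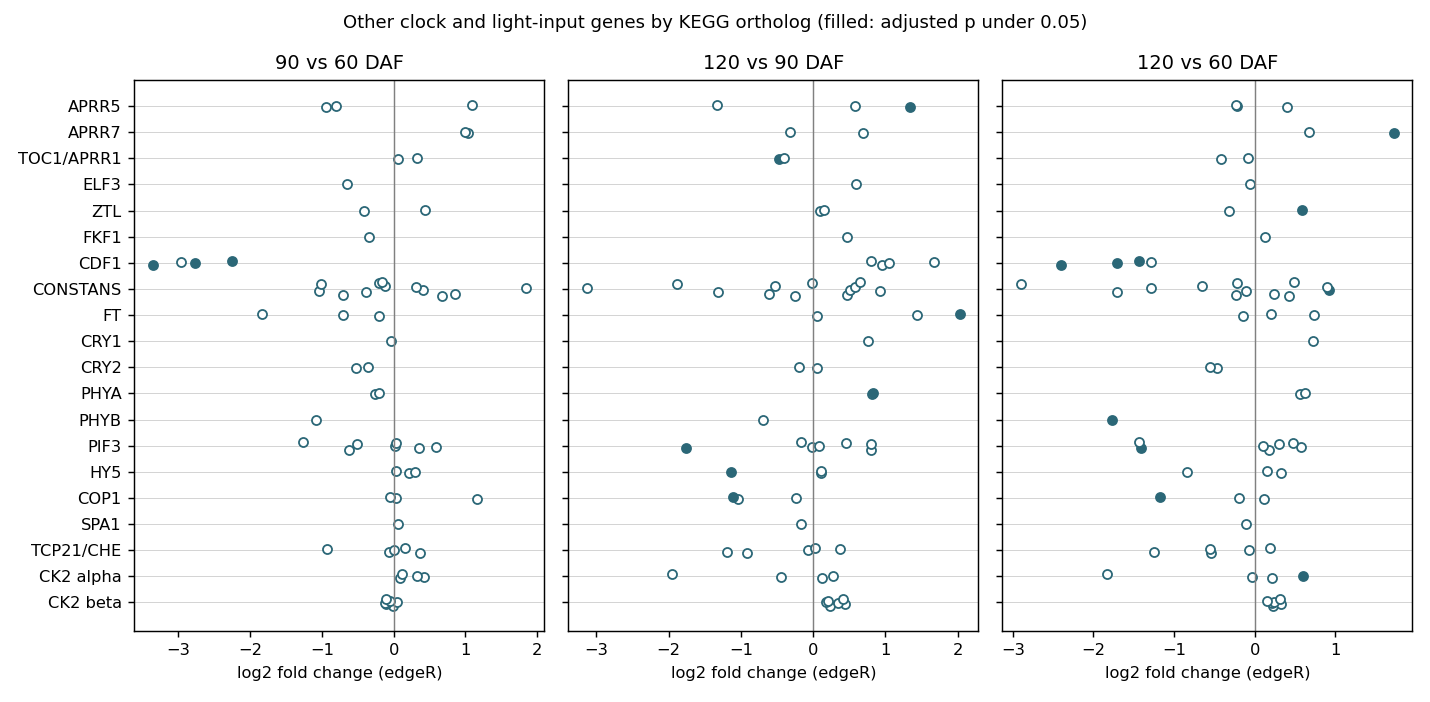
Log2 fold change (horizontal axes, edgeR) of the 65 tested genes of the clock and its light input, by the gene name of their KEGG code (vertical axis), in the 3 comparisons of ages. Filled points have an adjusted p under 0.05: 3 from 60 to 90 DAF, all of the CDF1 code, 7 from 90 to 120 DAF and 10 from 60 to 120 DAF.

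Pseudo-response regulators are clock repressors that follow LHY through the day. The APRR7 gene Aco001519 rose with GIGANTEA, from 33.2 ± 14.5 FPKM at 60 DAF to 69.2 ± 24.8 at 90 DAF and 90.8 ± 10.1 at 120 DAF, and passed the test between 60 and 120 DAF (1.72 ± 0.38, edgeR adjusted p = 0.0314). The call ended without 60 DAF replicate 2 or 3 or any one library of 120 DAF (3.00e-04 to 0.0967 over all alternatives). It also ended with the replicate number as a block. The other APRR7 gene, Aco011012, was highest at 90 DAF, at 70.0 ± 18.5, 140.7 ± 3.54 and 93.0 ± 16.4 FPKM, and was not called in any comparison (edgeR adjusted p = 0.0924 from 60 to 90 DAF). Among 3 tested APRR5 genes Aco013137 stood at 119 ± 21.8 FPKM at 60 DAF, above all its 90 DAF libraries. It rose from 63.2 ± 28.3 to 128 ± 18.9 FPKM from 90 to 120 DAF (1.34 ± 0.31, edgeR adjusted p = 0.0224). That call ended under total count scaling, by limma, when 60 DAF was dropped from the fit and without any one library of 120 DAF (5.36e-04 to 0.0728 over all alternatives). Aco019519 went the other way in that step, from 13.6 ± 8.97 to 4.29 ± 1.09 FPKM, and was not called (-1.33 ± 0.48, edgeR adjusted p = 0.0922), nor was Aco016766 (0.59 ± 0.25, edgeR adjusted p = 0.145). ZTL and FKF1, the partners of GIGANTEA named above, did not all rise with it. From 60 to 90 DAF the log2 fold change was -0.34 for FKF1 (Aco000252, edgeR adjusted p = 0.714). It was -0.41 and 0.44 for the ZTL genes Aco007494 and Aco025121 (0.715 and 0.146). For ELF3 (Aco005852) it was -0.65 (0.265). Of these, only Aco025121 was called between 60 and 120 DAF, as higher (0.0292). That call ended under total count scaling, by limma and with the replicate number as a block. It also ended without any one library of 60 DAF and without 120 DAF replicate 1 or 3. Both models with the code of the evening gene TOC1 were tested. Aco016038 stood at 36.5 ± 4.21, 38.4 ± 4.36 and 22.5 ± 3.15 FPKM at the 3 ages, with a log2 fold change of 0.06 from 60 to 90 DAF. Aco021178 stood at 25.5 ± 1.85, 32.4 ± 6.81 and 19.9 ± 3.62 FPKM, and its 90 DAF libraries lay above those of 60 DAF without a call (0.33 ± 0.17, edgeR adjusted p = 0.371). Aco016038 fell from 90 to 120 DAF (-0.48 ± 0.14, edgeR adjusted p = 0.0453, and 0.00170 to 0.142 over all alternatives). That call held in 8 of 19 alternatives. It ended without any one library of 60 or 120 DAF and without 90 DAF replicate 1 or 2. It also ended without the filter on low values, when 60 DAF was dropped from the fit and with the replicate number as a block.

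Of the 65, edgeR called 3 higher (4.62%) and 4 lower (6.15%) in the step from 90 to 120 DAF, shares below the 8.19% and 9.17% of all genes. Under total count scaling it was 1 higher and 7 lower. Between 60 and 120 DAF 4 were higher (6.15%, against 4.25% of all genes) and 6 lower (9.23%, against 5.22%), and 1 and 9 under total count scaling. That scaling gave a median over all genes of -0.32 and -0.29 on the log2 scale in these comparisons. Among the light-input genes the phytochrome-interacting factor PIF3 (Aco004914) fell from 25.7 ± 6.20 to 6.23 ± 1.496 FPKM from 90 to 120 DAF (-1.76 ± 0.28, edgeR adjusted p = 0.00755), a call kept in all 19 alternatives. The other 6 tested PIF3 genes were not called in that step, with log2 fold changes of -0.17 to 0.81. The phytochrome gene PHYA Aco013637 rose from 33.2 ± 8.14 to 47.6 ± 8.48 FPKM, groups that overlap by FPKM (0.83 ± 0.18, edgeR adjusted p = 0.0200). That call ended under total count scaling, by limma, without 120 DAF replicate 1 and when 60 DAF was dropped (4.98e-04 to 0.131 over all alternatives). The gene Aco014284 of the light-signalling factor HY5 fell from 112 ± 34.8 to 40.9 ± 6.37 FPKM (-1.14 ± 0.24, edgeR adjusted p = 0.0174). It was no longer called when 120 DAF replicate 1 was left out or 60 DAF was dropped (1.79e-04 to 0.0673 over all alternatives). For the HY5 genes Aco009751 and Aco027928 the log2 fold change was 0.11, and neither was called. The FT-code gene Aco010684 had means of 82.7, 23.4 and 78.0 FPKM at 60, 90 and 120 DAF. In the step from 90 to 120 DAF it was called higher (2.03 ± 0.49, edgeR adjusted p = 0.0267) and the COP1-code gene Aco005617 lower (-1.11 ± 0.27, 0.0289). Of 19 alternatives, 15 and 14 kept these calls. The other 2 tested genes of each code were not called (0.05 and 1.44 for FT, -1.04 and -0.23 for COP1).

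The genes most like GIGANTEA were sought by the Pearson correlation of log2 CPM over the 9 libraries, among 5506 annotated genes with a mean of at least 5 FPKM. The highest values belonged to Aco016830 (r = 0.977), which carries the KEGG code of type-B response regulators of cytokinin signalling (K14491), and to Aco017112 (r = 0.960), with the code of TGA transcription factors (K14431). The third was the APRR7 gene Aco001519 (r = 0.926). Aco016830 stood at 7.16, 1.63 and 3.44 FPKM at 60 DAF, at 39.0, 37.5 and 26.4 FPKM at 90 DAF, and at 28.1, 20.1 and 22.0 FPKM at 120 DAF. Like GIGANTEA it was lowest in replicate 2 and highest in replicate 1 of 60 DAF, an order that the choice by correlation favours. For Aco013228, the LHY-ortholog gene with the highest mean, the leading genes were the polyadenylation factor gene Aco010258 (r = 0.945), the TITAN-like gene Aco004607 (r = 0.934) and the nuclear pore gene Aco002415 (r = 0.932). These correlations rest on 9 libraries that share 3 ages and describe likeness only.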

How the data were processed

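Poly(A) RNA of pineapple peel was sequenced as paired-end libraries on an Illumina instrument, per the labels' protocols. The authors deposited whole-number read counts and FPKM values per gene model, per the file headers, with count 0 written as 0.0001 FPKM, which was read as 0 here. Bowtie 0.12.2, HISAT2 2.0 and StringTie 1.3.0 are named in the submitters' processing notes. What each tool did, its genome build and its strand handling were not given in the sources used here. Gene models that overlap can share or exchange reads, which affects 4 members.

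The counts were tested with edgeR 4.0.16 (R 4.3.3) in 1 quasi-likelihood model of 3 ages with 6 residual degrees of freedom and TMM factors of 0.849 to 1.15. FPKM values are not TMM-scaled, so ratios of printed levels differ from fold changes. The standard error is the log2 fold change divided by the square root of F. P-values were adjusted by Benjamini-Hochberg over 16791 genes. Alternatives used DESeq2 1.42.0 and limma 3.58.1 (pseudocounts 1 and 0.1), other scalings and filters, the replicate number as a block, 2 ages only, and each library left out. Correlations used a prior count of 1. Scripts were tested on simulated data.

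The members and lists were chosen with earlier results of these data known. All members are named, and other clock genes by KEGG code, 24 codes of which 20 had a gene. Core histone codes matched 0 models. Of the members, 0 matched the RefSeq table (assembly ASM154086v1), and no sequences are shown. Replicate numbers were not treated as pairs.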

Additional observations from a re-analysis of the deposited data

How the results depend on the processing

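Of 558 log2 fold changes of members recomputed under alternatives, 506 kept their direction and side of the threshold, 25 lost a call, 21 gained one and 6 changed sign. Median-ratio scaling, total count scaling and the filters changed no call of a member, although 3 members were not tested at the stricter filter. Members called from 60 to 90 DAF numbered 2 in the report, 5 by DESeq2, 4 by limma with either pseudocount, 0 with the replicate block, 0 with only the 2 compared ages, and 0 to 3 without single libraries. From 90 to 120 DAF the 2 became 4 by DESeq2, 1 with only the 2 ages, and 0 to 3 without single libraries. From 60 to 120 DAF the 1 became 3 by DESeq2, 2 by limma on log2(FPKM + 1), 3 with only the 2 ages, and 0 to 3 without single libraries. Other clock genes called from 60 to 90 DAF were 3, against 10 by DESeq2, 0 with the replicate block, 1 with only the 2 ages and 0 to 4 without single libraries. From 90 to 120 DAF the 7 became 14 by DESeq2, 1 with only the 2 ages and 2 to 10 without single libraries. From 60 to 120 DAF the 10 became 18 by DESeq2, 3 with the replicate block, 16 with only the 2 ages and 1 to 14 without single libraries. Beside these, edgeR called 132 of all genes from 60 to 90 DAF, 10 with the replicate block, 54 with only the 2 ages and 0 to 276 without single libraries. The cause of these differences was not tested. Signs changed for Aco013238 from 90 to 120 DAF with overlapping models summed (-0.0729) and for Aco017509 by limma (-0.0013 and -0.0018). They also changed from 60 to 120 DAF for Aco017509 (-0.18 to 0.12) and Aco028654 (-0.62 to 0.0615) without single libraries. All of these values were small beside their errors. The labels do not say whether replicate numbers pair the samples, and the main fit did not use them. With the replicate block the calls of Aco009204 (0.109), Aco011903 (0.108) and the 3 CDF1 genes from 60 to 90 DAF ended, as did that of Aco016038 from 90 to 120 DAF. From 60 to 120 DAF the calls of Aco001519, Aco009612, Aco018657 and Aco025121 ended with it. So did those of Aco001769 (PHYB code), Aco012359 (CK2 alpha code) and Aco015080 (CONSTANS code). Same-numbered libraries correlated at -0.316 to 0.365 in their deviations from the age means, and 3 of 9 libraries correlated best with their own number. With 3 libraries an age these values cannot decide whether the numbers mark pairs. At the levels of Aco023196 (4 to 260 counts a library) only large differences were detectable.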
